A study of Mus musculus with 12 samples.

Results

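Cnn1, S100a4, S100a6, Flii, Aif1l, Emd, Hip1r and Myo18a are 8 mouse genes of actin-binding and actin-associated proteins, and their mRNA was followed in bone marrow mesenchymal stem cells (BMSCs) that were induced to form bone with or without α-asarone, in a study of tendon-bone healing. They were taken by symbol, and were chosen by the measured difference in count and TPM between the same libraries, because actin-binding genes were lower with α-asarone. All 8 were among the 658 genes of the table analysed here, and all 8 passed the filter on low values that left 512 genes. Because the contrast chose them, their values between the groups, and the calls that the fit of all genes made on them, are given as a description and support nothing. In the deposited annotation 7 of the 8 carry the Gene Ontology function actin binding. S100a6 does not; it carries tropomyosin binding.

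The α-asarone group had 6 libraries from BMSCs in osteogenic medium with α-asarone, a phenylpropanoid of Acorus oils that the labels spell α-Asaronel, and the control group had 6 libraries from BMSCs in the same medium with no agent named. All 12 cultures were labelled WT and had fetal bovine serum at 15%, and the inducers were ascorbic acid at 50 µM, β-glycerophosphate at 10 mM and dexamethasone at 100 nM. The sources used here do not give the dose and duration of α-asarone, the strain, age and sex of the mice, or the strandedness of the libraries. Replicates are called biological in the design text, with no word on whether they came from separate animals, so p-values measure only the spread between these libraries, which may be technical. Plastic-adherent marrow cultures can hold other cell types, and several of their markers were measured. Of 14 stromal markers only Col1a1 was in the table, at 1208 to 1428 TPM (a level scaled to transcript length and to a fixed library total) with α-asarone and 1720 to 2103 TPM in controls. Of 14 macrophage and myeloid markers 3 were in the table (Spi1, Itgb2 and Cd52), and they summed to 496 to 525 TPM with α-asarone, against 514 to 569 TPM in controls. By edgeR's test of all genes at an adjusted p under 0.05, Spi1 rose (log2 fold change 0.19), and Itgb2 and Cd52 fell (by 0.10 and 0.32), as did Col1a1 (by 0.50), which was also the 1 osteoblast marker of 10 in the table. Of 10 adipocyte markers 4 were in the table, and they summed to 393 to 507 TPM with α-asarone, against 349 to 406 TPM in controls; Plin4, Lipe and Cd36 rose and Pparg was not called. The osteoclast marker Acp5, the 1 of 9 in the table, which macrophages can also express, had 25.1 to 38.4 TPM with α-asarone, against 57.9 to 78.4 TPM in controls. The endothelial markers Vwf and Esam summed to at most 1.78 TPM with α-asarone, against 2.11 TPM in controls, and Myf5, a skeletal muscle gene, was listed at 0 in all 12 libraries. None of the 10 smooth muscle and pericyte markers, Acta2, Tagln and Myh11 among them, was analysed here, so the contractile state that Cnn1 is used to mark could not be checked with any marker of that list. The part of the other cell types in the values below was not tested, and in bulk libraries fewer cells of a type and less RNA per cell cannot be told apart.

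Actin filaments carry tension, shape the cell surface and move vesicles, and the proteins described here act on them at different places. Calponin binds filaments together with tropomyosin and slows the actin-activated ATPase of myosin in smooth muscle and in contractile stromal cells. S100 proteins are small calcium sensors that bind partner proteins, myosin and annexins among them, when calcium rises. Flii remodels filaments, Aif1l bundles them, emerin meets them at the inner nuclear membrane, Hip1r ties them to clathrin pits, and Myo18a is an unconventional myosin.

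By the call used throughout, a Benjamini-Hochberg adjusted p under 0.05 in edgeR's quasi-likelihood fit of all 512 genes, 6 of the 8 genes were lower with α-asarone, 0 were higher and 2 were not called. Of all 512 genes tested, 17.4% were called lower and 12.9% higher, which is 89 and 66 genes; with the table totals in place of TMM scaling factors 62 were lower and 127 higher. Since the rule took these genes from that contrast, nothing is read from their share. TPM of the groups did not overlap for 4 of the 8, all of them lower with α-asarone, beside 8.4% of all tested genes that were lower and 5.86% that were higher without overlap. The log2 fold change (α-asarone minus control) was below 0 for 6 of the 8, and for 48.8% of all tested genes. Its median over the 8 was -0.20, against 0.0007 over all tested genes. The differences were uneven in size. Cnn1 had the largest absolute log2 fold change of the 512 genes, while Flii and Emd differed by -8.99% and -9.35% and Myo18a had a log2 fold change of 0.02.

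**Figure D1:**
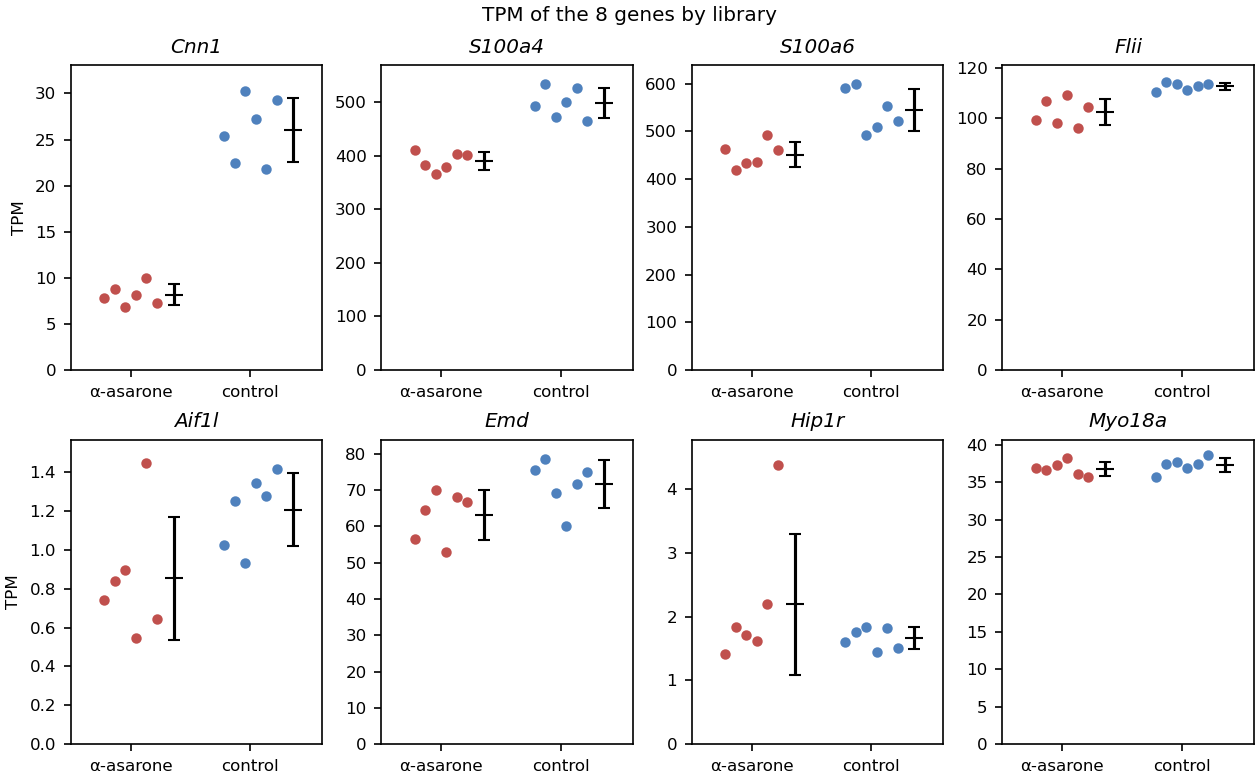
TPM (vertical axes, starting at 0) of the 8 genes in each library, with α-asarone in red on the left and control in blue on the right; points are libraries, and bars give mean ± SD of 6. Cnn1, S100a4, S100a6 and Flii show no overlap between the groups, Aif1l, Emd and Myo18a overlap, and Hip1r has 1 α-asarone library at 4.39 TPM above all others.

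Calponin 1 is encoded by Cnn1 (ENSMUSG00000001349), on the plus strand at chr9:22099216-22109630 of GRCm38, with 5 transcripts in GENCODE M21, 4 of them coding and 370 to 2381 bases long. Its TPM was 6.82 at the lowest, 7.97 at the median and 9.97 at the highest of the 6 α-asarone libraries, against 21.8, 26.3 and 30.3 TPM in the controls. The highest α-asarone library was below the lowest control by more than the whole range of the α-asarone group. The group means were 8.14 ± 1.13 TPM with α-asarone, against 26.1 ± 3.50 TPM in controls (SD, n = 6 each). Behind these means stood 76 to 136 estimated counts with α-asarone and 236 to 422 in controls. Cnn1 was 3.26-fold lower with α-asarone, a log2 fold change of -1.71 ± 0.10 (SE), and the 22 alternative fits gave -1.81 to -1.57. The within-group SD of its log2 normalised count (the count scaled to library size) was 0.22, against a median of 0.08 over tested genes of all count levels. Counting alone gives 0.10 at its mean count over the 12 libraries, and more than that at the lower counts of the α-asarone libraries. Libraries of 1 group thus differed in Cnn1 more than sampling of reads gives, by far less than the groups differed.

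The 250 bases before the RefSeq start of Cnn1 (GRCm38.p6, plus strand, chr9:22099003-22099252) are shown because this gene had the largest difference. The GENCODE start lies inside them.
Cnn1: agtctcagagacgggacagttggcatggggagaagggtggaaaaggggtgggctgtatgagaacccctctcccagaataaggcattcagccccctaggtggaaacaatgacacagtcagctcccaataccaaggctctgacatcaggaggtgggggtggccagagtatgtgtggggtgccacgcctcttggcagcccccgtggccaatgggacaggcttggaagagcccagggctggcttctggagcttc
A set of 5 short motifs was searched on both strands of windows of 300 bases, 250 before and 50 after each RefSeq start. They were the CArG box of serum response factor, the AP-1 site TGACTCA, the MCAT element GGAATG, the nuclear receptor element AGGTCA, and TATAAA. None of the 5 was found in the Cnn1 window, which says only that these letters are not in it. Of all 32851 RefSeq windows, 1.63% held a CArG box, 5.2% TGACTCA, 14.7% GGAATG, 16.3% AGGTCA and 13.6% TATAAA.

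S100a4 and S100a6 were the most abundant of the 8, at ranks 12 and 10 by mean TPM among the 512 tested genes. S100a4, whose protein binds non-muscle myosin heavy chain and is often used to mark fibroblasts, lies on the plus strand at chr3:90603771-90606045 (ENSMUSG00000001020). It had 367 TPM at the lowest, 392 at the median and 411 at the highest with α-asarone, against 466, 497 and 534 TPM in controls. All 6 α-asarone libraries were below all 6 controls. The difference was 1.27-fold, a log2 fold change of -0.35 ± 0.03 (SE), with means of 391 ± 17.0 TPM with α-asarone, against 499 ± 27.5 TPM in controls (SD, n = 6 each). The annotated gene Gm42674 overlaps S100a4 on the same strand over 2115 bases, so reads of the pair could be shared in counting. The deposited count of S100a4 was a whole number in all but 1 library.

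S100a6, also called calcyclin, binds annexins and tropomyosin and lies 6836 bases downstream of S100a4 on the same strand, at chr3:90612882-90624181 (ENSMUSG00000001025). Its TPM was 420 at the lowest, 449 at the median and 492 at the highest with α-asarone, against 492, 537 and 599 in controls. The groups met at 492 TPM without crossing. On normalised counts they crossed, with 3108 in the highest α-asarone library and 3065 in the lowest control. S100a6 was 1.20-fold lower with α-asarone, a log2 fold change of -0.26 ± 0.04 (SE), with means of 451 ± 26.1 TPM with α-asarone, against 545 ± 44.2 TPM in controls (SD, n = 6 each). In the 22 alternative fits the log2 fold change of S100a4 lay between -0.37 and -0.30 and that of S100a6 between -0.29 and -0.22.

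The ratio of S100a4 to S100a6 TPM was 0.820 at the lowest, 0.870 at the median and 0.912 at the highest with α-asarone, and 0.833, 0.922 and 0.982 in controls. S100a6 was the higher of the pair in all 12 libraries, and the ratios of the groups overlapped. Deviations from the group means, which the choice of the genes did not use, ran together for the pair. Over the 12 libraries Pearson's r of log2(TPM + 1) deviations was 0.692 (permutation p = 0.0272) and Spearman's rho 0.692 (permutation p = 0.0260), and r without the 2 libraries farthest from the median was 0.605. This was the highest r of the 28 pairs among the 8 genes. After adjustment over the 28 pairs its p-values were 0.694 for r and 0.728 for rho, and no pair passed. Of 20 genes listed for the S100 family 4 were in the table. S100a3 averaged 0.349 TPM with α-asarone, against 0.323 TPM in controls, and S100a5 was listed at 0 in all α-asarone libraries and reached at most 0.738 TPM in controls; neither passed the filter.

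**Figure D2:**
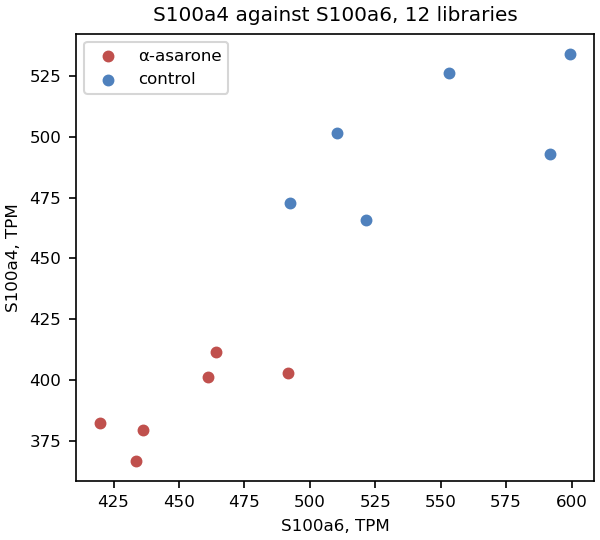
S100a4 TPM (vertical axis) against S100a6 TPM (horizontal axis), one point per library, α-asarone in red and control in blue; both axes start above 0. The α-asarone libraries lie at 367 to 411 TPM of S100a4 and 420 to 492 TPM of S100a6, and the controls above and to the right of them.

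The 250 bases before the RefSeq starts of these genes (GRCm38.p6, plus strand, chr3:90603520-90603769 for S100a4 and chr3:90612644-90612893 for S100a6) are shown because the 2 genes lie close together and were both lower. Capitals mark TATAAA and, separated from it by a single base, AGGTCA.
S100a4: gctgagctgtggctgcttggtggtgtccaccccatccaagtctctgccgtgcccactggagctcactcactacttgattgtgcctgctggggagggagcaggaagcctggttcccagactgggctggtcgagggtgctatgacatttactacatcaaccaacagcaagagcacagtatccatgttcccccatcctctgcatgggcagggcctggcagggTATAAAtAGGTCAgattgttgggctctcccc
S100a6: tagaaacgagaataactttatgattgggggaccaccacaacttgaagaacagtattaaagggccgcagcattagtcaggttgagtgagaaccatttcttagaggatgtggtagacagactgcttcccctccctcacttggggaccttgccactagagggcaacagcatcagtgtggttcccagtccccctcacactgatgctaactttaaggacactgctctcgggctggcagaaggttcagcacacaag
In S100a4, TATAAA covers bases 31 to 26 before the start and AGGTCA bases 24 to 19, both on the gene's strand. No motif of the 5 was found in the S100a6 window, and among the windows of the other genes only that of Emd held any, GGAATG at 244 to 239 and AGGTCA at 124 to 119 bases before its start. The remaining windows lack these letters, which says nothing about the factors.

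Flii and Aif1l act on filaments directly. Flii (ENSMUSG00000002812, minus strand, chr11:60714123-60727263) encodes flightless 1, a protein of the gelsolin family with leucine-rich repeats that also works as a nuclear receptor coactivator. Its TPM was 96.2 at the lowest, 102 at the median and 109 at the highest with α-asarone, against 111, 113 and 114 in controls. The groups did not overlap, and the α-asarone libraries were the more scattered, with means of 102 ± 5.24 TPM with α-asarone, against 113 ± 1.55 TPM in controls (SD, n = 6 each). The log2 fold change was -0.14 ± 0.03 (SE) and lay between -0.15 and -0.09 in the 22 alternative fits. Flii shares 64 bases with Llgl1 on the opposite strand. Another gelsolin family gene in the table, the severing protein gene Scin, averaged 0.102 TPM with α-asarone, against 0.170 TPM in controls, and was not tested; the rest of the 8 genes listed for that family were not analysed here.

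Aif1l (ENSMUSG00000001864, plus strand, chr2:31950139-31973442) encodes a calcium-binding relative of the macrophage protein Iba1 that bundles actin. It was the lowest of the 8, at rank 510 of the 512 tested genes. Aif1l had 0.546 TPM at the lowest, 0.790 at the median and 1.45 at the highest with α-asarone, against 0.933, 1.26 and 1.42 in controls. In TPM 5 of the 6 α-asarone libraries were below the lowest control, and α-asarone replicate 5 was above all controls. In estimated counts the α-asarone libraries had 13 to 25 and the controls 27 to 40, with no overlap, while the normalised counts of the groups met at 25.7. The log2 fold change was -0.70 ± 0.19 (SE), 1.62-fold lower with α-asarone. Its within-group SD of 0.28 was the size that counting alone gives at its mean count over the 12 libraries, also 0.28. Aif1l met the filter of 1 TPM in at least 6 libraries with exactly 6, 1 with α-asarone and 5 controls, so it entered the test through the group where it was higher. It was not tested with a filter of 5 TPM, nor without α-asarone replicate 5 or any 1 of control replicates 1, 2, 4, 5 and 6. Among the 15 alternatives that tested it, limma on log2(TPM + 1) gave -0.26 and limma on log2(TPM + 0.1) -0.50, and neither called it. Gm13442 overlaps Aif1l in antisense over 858 bases.

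Emd (ENSMUSG00000001964, plus strand, chrX:74254687-74261548) encodes emerin, an inner nuclear membrane protein that caps the slow-growing ends of actin filaments and binds lamins. Its TPM was 52.9 at the lowest, 65.6 at the median and 70.1 at the highest with α-asarone, against 60.0, 73.4 and 78.6 in controls. The groups overlapped, with 2 of the 6 α-asarone libraries below the lowest control and all 6 below the control median. Means were 63.1 ± 6.88 TPM with α-asarone, against 71.7 ± 6.58 TPM in controls (SD, n = 6 each), and the log2 fold change was -0.14 ± 0.05 (SE). The call was made in 11 of 22 alternative fits. It was lost with table totals, by limma at both pseudocounts, and without α-asarone replicate 1, 2, 4 or 6 or control replicate 1, 2, 5 or 6, while the log2 fold change without 1 library stayed between -0.18 and -0.12. A pseudogene, Gm14686, overlaps Emd on the same strand over 343 bases, and the deposited counts of Emd were not whole in any of the 12 libraries.

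Hip1r and Myo18a were not called. Hip1r (ENSMUSG00000000915, plus strand, chr5:123973628-124005558) encodes a protein that links clathrin-coated pits to actin filaments. Its TPM was 1.41 at the lowest, 1.78 at the median and 4.39 at the highest with α-asarone, against 1.44, 1.68 and 1.84 in controls. The groups overlapped, and the highest value was α-asarone replicate 6 alone. The mean was 2.20 ± 1.11 TPM with α-asarone (SD, n = 6) and 1.76 ± 0.298 TPM without that library, against 1.66 ± 0.170 TPM in controls (SD, n = 6). In estimated counts the same library was not high. It had 88.7, within the 80.5 to 128 of its group, against 82.1 to 103 in controls. The log2 fold change from counts was 0.17 ± 0.11 (SE), and 0 of 21 alternatives called it, with a range of 0.09 to 0.28. Hip1r overlaps Gm37939 over 911 bases and Mir7032 over 79 bases on the same strand and Vps37b over 918 bases on the opposite strand, and its counts were not whole in any of the 12 libraries.

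Myo18a (ENSMUSG00000000631, plus strand, chr11:77763246-77865980) encodes myosin XVIIIA, an unconventional myosin of the Golgi and of cortical actin. Its TPM was 35.6 at the lowest, 36.7 at the median and 38.3 at the highest with α-asarone, against 35.7, 37.4 and 38.6 in controls. The ranges of the groups nearly coincided. The log2 fold change was 0.02 ± 0.03 (SE), and 0 of 22 alternatives called it, with a range of -0.020 to 0.064 that crosses 0. Its within-group SD of 0.034 on log2 normalised counts was lower than that of all but 4.69% of tested genes and close to the 0.032 that counting gives, at 1656 to 2514 estimated counts per library. Gm10277 overlaps it on the opposite strand over 2295 bases. For Hip1r and Myo18a, a p that misses the threshold does not show that the groups did not differ.

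**Figure D3:**
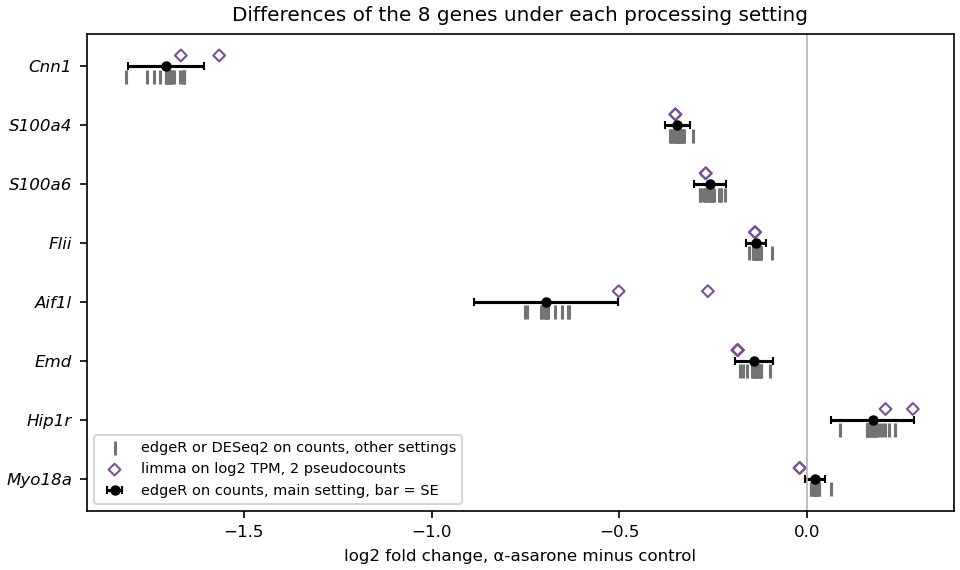
Log2 fold change, α-asarone minus control, of the 8 genes (horizontal axis); black points and bars are the edgeR estimate ± SE, grey ticks the other count-based fits and purple diamonds limma on log2 TPM with 2 pseudocounts. Cnn1 stays between -1.81 and -1.57, Myo18a straddles 0, and Aif1l moves to -0.26 and -0.50 on TPM.

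By mean TPM over both groups the order was S100a6, S100a4, Flii, Emd, Myo18a, Cnn1, Hip1r and Aif1l. With α-asarone the same order held. The ranges of S100a6 and S100a4 were apart with α-asarone and overlapped in controls. Those of Hip1r and Aif1l overlapped with α-asarone, where the highest Aif1l value of 1.45 TPM passed the lowest Hip1r value of 1.41 TPM. In controls the lowest Hip1r value of 1.44 TPM stood just above the highest Aif1l value of 1.42 TPM. Each of the other neighbours in the order was separated in every library.

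For part of the genes the order of the libraries differed between TPM and counts. TPM divides a gene's reads by a transcript length, so the reads behind 1 TPM, corrected for library depth, move with the length used in that library. This quantity was set to 1 at the mean of the 12 libraries. It was 1.00 in every library for Flii, which has 4 transcripts, 1 of them coding, and 0.997 to 1.00 for S100a4. For Hip1r, with 2 coding transcripts of 357 and 6735 bases, it was 0.413 in α-asarone replicate 6 and at least 0.897 in the other 11 libraries. For Aif1l, whose 3 coding transcripts span 288 to 3117 bases, it was 0.652 in α-asarone replicate 3, 0.697 in α-asarone replicate 5 and 0.883 in control replicate 5, and 1.09 in the other 9. For Cnn1 it was lowest in α-asarone replicate 2 at 0.821 and otherwise 0.898 to 1.09. For Emd it was 0.944 to 1.14 with α-asarone and 0.968 to 1.02 in controls. For Myo18a, whose 17 coding transcripts span 286 to 7513 bases, the groups did not overlap. It was 1.0013 to 1.021 there with α-asarone and 0.952 to 1.0003 in controls. The log2 ratio of the mean TPM of Myo18a was -0.020, against a log2 fold change of 0.021 from counts. The SD of this quantity was above that of 98.2% of tested genes for Hip1r, 97.3% for Aif1l and 91.0% for Cnn1, and above that of 2.73% for Flii. The lengths used in each library are not given, so which transcripts were assigned was not examined. The cause of these differences was not tested.

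**Figure D4:**
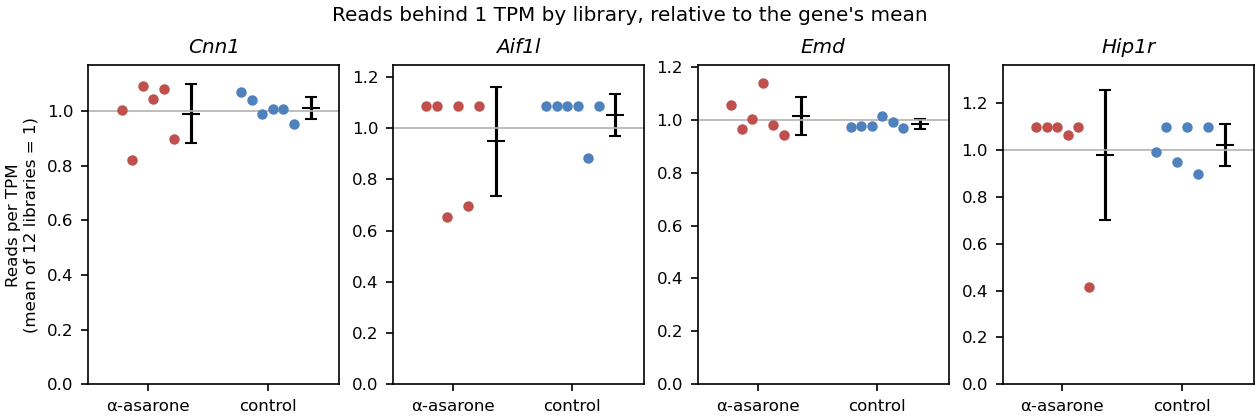
Reads behind 1 TPM in each library relative to the gene's mean over 12 libraries (vertical axes, starting at 0), α-asarone in red on the left and control in blue on the right; bars give mean ± SD of 6. α-asarone replicate 6 of Hip1r stands at 0.413, and α-asarone replicates 3 and 5 of Aif1l at 0.652 and 0.697.

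The other genes of the table with the word actin in their deposited annotation were counted in the same fit. There were 33 of them besides the 7, and 24 were tested. Of these, 4 rose with α-asarone (12.9% of all tested genes were called higher), 6 fell (17.4% were called lower) and 14 were not called. Their median log2 fold change was 0.01, against 0.0007 over all tested genes. All 4 that rose carry actin in a Gene Ontology term, as do 2 of the 6 that fell; the other 4 that fell carry it in a pathway name or description alone. Of the 3 others with the function actin binding, Fer, a tyrosine kinase gene, had 29.8 ± 0.661 TPM with α-asarone, against 30.1 ± 1.86 TPM in controls, Stk38l, a serine/threonine kinase gene, had 13.2 ± 1.34 TPM with α-asarone, against 14.2 ± 0.714 TPM in controls (SD, n = 6 each), and neither was called, while Scin was not tested. Stk38l was called lower without α-asarone replicate 1 (adjusted p = 0.0153).

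Tgfb1, a cytokine gene that drives the contractile programme in fibroblasts, was the largest rise of this list. It had 183 ± 6.11 TPM with α-asarone, against 164 ± 3.24 TPM in controls (SD, n = 6 each), with no overlap and a log2 fold change of 0.17 ± 0.03 (SE, adjusted p = 1.36e-05). Poldip2, Snx9, a sorting nexin gene of endocytosis, and Axl, a receptor tyrosine kinase gene, rose by log2 fold changes of 0.11, 0.11 and 0.09. Of the genes that fell with at least 5 TPM, Itga3 (integrin α3) and Jup (plakoglobin), both adhesion genes, differed most. Itga3 had 8.18 ± 1.55 TPM with α-asarone, against 9.24 ± 1.24 TPM in controls (SD, n = 6 each), with overlap, and a log2 fold change of -0.41 ± 0.07 (SE, adjusted p = 3.37e-05) that was -0.16 by limma on log2(TPM + 1), with adjusted p = 0.275. Jup had 14.5 ± 0.696 TPM with α-asarone, against 17.4 ± 1.27 TPM in controls (SD, n = 6 each), a log2 fold change of -0.28 ± 0.06 (SE, adjusted p = 3.37e-04). Braf, Itgb2 and Calr, genes of a kinase, a leukocyte integrin and the chaperone calreticulin, fell by 0.17, 0.10 and 0.09 on the log2 scale, each with no overlap in TPM. Below 5 TPM, Itgb7 fell by 0.59 (adjusted p = 0.0363), at 1.22 TPM with α-asarone, against 1.44 TPM in controls, with overlap. Its call was kept in 11 alternatives and lost in 10, among them DESeq2 and limma at both pseudocounts. Calls of Axl and Snx9 were lost by limma on log2(TPM + 1) (adjusted p = 0.140 and 0.0542), those of Calr and Itgb2 with table totals (adjusted p = 0.114 and 0.0518), and that of Poldip2 without α-asarone replicate 1, 5 or 6 or control replicate 4 (log2 fold changes of 0.09 to 0.11). Among those not called, the most abundant was the GTPase gene Rac1, at 399 ± 7.22 TPM with α-asarone, against 414 ± 8.84 TPM in controls (SD, n = 6 each), followed by Rhoc, Gna12 and Itga5 with log2 fold changes of 0.04, 0.05 and 0.07. Gna12 was called higher with table totals (adjusted p = 0.0111). Itga5 was called higher with table totals (adjusted p = 0.00948) and without α-asarone replicate 3 or control replicate 2 (adjusted p = 0.0171 and 0.0451).

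**Figure D5:**
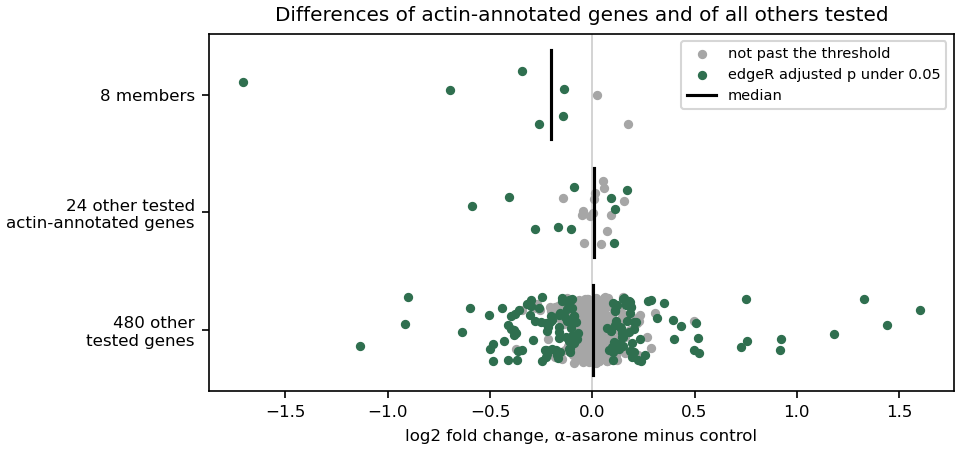
Log2 fold change, α-asarone minus control (horizontal axis), of the 8 genes, of 24 other tested genes with actin in their annotation and of the remaining tested genes; green points passed the edgeR threshold, grey ones did not, and black bars are medians. The 8 genes, chosen with this axis in view, have a median of -0.20, while the medians of the other groups lie at 0.01 and close to 0.

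Pathway lists written around the 8 genes had few other members in the table. Beside Cnn1, the list of 40 contractile and myofibroblast genes had Tgfb1 alone. Of 20 clathrin endocytosis genes, 4 were in the table. Snx9 rose, while Ap2a2, an adaptor subunit gene, and Epn2, an epsin gene, fell. Ap2a2 had 140 ± 4.73 TPM with α-asarone, against 148 ± 6.87 TPM in controls, and Epn2 had 44.1 ± 3.94 TPM with α-asarone, against 47.9 ± 3.54 TPM in controls (SD, n = 6 each). Their log2 fold changes were -0.08 (adjusted p = 0.0182) and -0.10 (adjusted p = 0.00899). Neither was called by limma on log2(TPM + 1) (adjusted p = 0.0730 and 0.154) or with table totals (adjusted p = 0.309 and 0.157), and Ap2a2 was not called without α-asarone replicate 6 or control replicate 2 (adjusted p = 0.0527 and 0.0517). Rac1 was the other gene of 57 for actin dynamics beside Aif1l, and no other of 35 myosin genes or 18 nuclear envelope genes was in the table.

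Nearest tested genes in the genome were compared with each of the 8. Acp5, a phosphatase gene of osteoclasts, lies 17096 bases from Cnn1 on the opposite strand. It had 29.8 ± 5.07 TPM with α-asarone, against 66.6 ± 7.57 TPM in controls (SD, n = 6 each), a log2 fold change of -1.14 ± 0.08 (SE, adjusted p = 5.21e-13). Prkcsh, a glucosidase subunit gene 84993 bases away on the other side of Cnn1, was not called, at 150 ± 4.70 TPM with α-asarone, against 148 ± 6.43 TPM in controls (SD, n = 6 each). Chtop, 94272 bases from S100a4, was not called either, with a log2 fold change of 0.07, but was called with median-ratio scaling (adjusted p = 0.0403), with table totals (adjusted p = 0.00458), by DESeq2 (adjusted p = 0.0411), and without α-asarone replicate 3 or control replicate 6 (adjusted p = 0.0494 and 0.0224). Nup214, a nucleoporin gene 993 bases from Aif1l on the same strand, rose with a log2 fold change of 0.15 ± 0.03 (SE, adjusted p = 4.00e-04). Tom1l2, 361217 bases from Flii, fell by 0.11 (adjusted p = 0.00388), a call lost by limma on log2(TPM + 1) (adjusted p = 0.255) and with table totals (adjusted p = 0.0993), and Top3a, 12794 bases from Flii, was not called. The nearest tested genes of Emd (Fam50a at 51484 bases and Pdzd4 at 429717) and of Myo18a (Abhd15 at 224638 and Rab34 at 322449) were not called. Gpr107, 731363 bases from Aif1l, Rhoc, 14164193 bases from S100a6, and Baz1b, 11181705 bases from Hip1r, were not called either. Abhd15 and Rab34 were called higher with table totals (adjusted p = 0.0334 and 0.0247), and Abhd15 also without control replicate 2 (adjusted p = 0.0451). Oas1c, 3161113 bases from Hip1r, fell by 0.48 (adjusted p = 0.0101). Limma on log2(TPM + 1) gave it a log2 fold change of -0.28 and did not call it (adjusted p = 0.193).

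Which genes followed Cnn1 from library to library was measured on deviations from the group means of log2(TPM + 1) over the 12 libraries, which the contrast does not enter. No gene of 511 passed an adjusted p of 0.05 in 100000 permutations within groups; 18 had an unadjusted permutation p under 0.05, and the lowest adjusted p was 0.906. The highest r among genes with at least 5 TPM belonged to Rrp15, a ribosome assembly gene, at 0.748 (permutation p = 0.00665), with rho of 0.706 (permutation p = 0.0138) and r of 0.586 without the 2 farthest libraries. Nhp2, Hddc2, Vps50 and Kmt2a followed with r of 0.598, 0.597, 0.597 and 0.586 (permutation p = 0.0469, 0.0529, 0.0519 and 0.0566) and rho of 0.517, 0.510, 0.517 and 0.573 (permutation p = 0.102, 0.108, 0.101 and 0.0642). Without the 2 farthest libraries their r was 0.477, 0.209, 0.511 and 0.374, and that of Kmt2a was -0.17 on log2 normalised counts. None of the other 7 genes was among the highest. Their r with Cnn1 ran from -0.391 for S100a4 to 0.291 for Aif1l.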

How the data were processed

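Poly(A) RNA of 12 libraries, 6 per group, was sequenced with inserts of about 300 bp, per the labels' protocols. The authors deposited 1 table with TPM values and estimated counts, per the file headers; 7.45% to 9.57% of the counts of a library are not whole. The submitters' processing notes name GRCm38 and mm10. No source used here gives the aligner or the quantifier. The 658 genes analysed hold 5.36% to 5.67% of each library's TPM, so their totals of 843595 to 1224256 estimated counts are not library depths; Apoe takes 19.6% to 23.0% of them. All 658 identifiers matched GENCODE M21, from which coordinates come. Promoter windows come from RefSeq (GRCm38.p6), where all 8 genes matched, with 9 windows.

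Estimated counts were rounded and fitted with edgeR 4.0.16 (R 4.3.3; TMM, glmQLFit, glmQLFTest, no covariate) over 512 genes with at least 1 TPM in at least 6 libraries, and p-values were adjusted by Benjamini-Hochberg. Normalised counts are counts scaled by TMM library sizes to the mean library. Limma 3.58.1, DESeq2 1.42.0, other scalings and filters, the replicate block and each library left out were alternatives. The procedure was tested on simulated data. Replicate pairs differed by more than sampling noise (chi-square per degree of freedom 2.27 to 11.9 over 30 pairs), so none was treated as a duplicate. Correlations used 100000 permutations within groups.

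The members and lists were chosen with earlier results of these data known. Genes named are the 8; of other actin-annotated genes up to 10 called with at least 5 TPM and up to 4 not called; of each pathway list up to 4 called; the 5 most like Cnn1; nearest tested neighbours; and cell type markers in the table. Fer, Stk38l, Scin, S100a3, S100a5, Itgb7 and Araf fall outside this rule and were named after their values were seen.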

Additional observations from a re-analysis of the deposited data

Results flagged for a closer look

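In 10 of 152 sets of 6 libraries examined with Dixon's test, 1 library stood apart from the other 5; chance gives about 7.6. Hip1r TPM was 4.39 in α-asarone replicate 6, with the other 5 at 1.41 to 2.21, and its reads behind 1 TPM were 0.413 of the gene's mean there. The reads behind 1 TPM also stood apart at 0.883 for Aif1l in control replicate 5, at 0.952 for Myo18a in control replicate 6 and at 0.997 for S100a4 in control replicate 2. The last is a departure from 1.00 of no visible size. The total estimated count was 843595 in control replicate 2, against 1068547 to 1173845 in the other controls. Without it Emd was not called and Aif1l was not tested, while the calls of the other 6 genes stayed as they were. Of the other genes examined, Araf had 65.3 TPM in control replicate 1, Baz1b 68.6 TPM in α-asarone replicate 5, Plin4 12.9 TPM in control replicate 4 and Poldip2 48.7 TPM in control replicate 4, each apart from the rest of its group. Araf, an actin-annotated gene not called in the fit reported, is named only for this value. What sets these libraries apart was not tested.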

How the results depend on the processing

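Cnn1, S100a4, S100a6 and Flii kept their direction and call in 22 of 22 alternatives, and Hip1r and Myo18a were not called in any that tested them. Genes called numbered 155 in the fit reported, 116 to 189 over the other settings and 138 to 152 with 1 library left out. With table totals 127 genes were higher, 7 actin-annotated genes were higher, 2 pathway list genes were called and 0 of them lower, and Myo18a had a log2 fold change of 0.064; that scaling moved the median of all genes by 0.04. Limma on log2(TPM + 1) called 6 actin-annotated genes, 2 of them higher, and 1 pathway list gene, which was higher, with 0 lower. The counts with log2(TPM + 0.1) were the same. Limma gave Myo18a -0.020 at both pseudocounts and Aif1l -0.26 at the larger one. The r of Kmt2a with Cnn1 turned to -0.17 on log2 normalised counts. With 1 library left out, pathway list genes called lower numbered 1 to 2; the count was 1 without α-asarone replicate 6 or control replicate 2. The cause of these shifts was not tested. Same-numbered libraries deviated together with r of -0.003 to 0.128, and in 2 of 6 the best match was the own number, so the replicate numbers are not taken as pairs; the fit with the replicate block called 168 genes, 11 actin-annotated genes among them, Itga5 included (adjusted p = 0.0420). The table holds part of each transcriptome, and Aif1l at 13 to 40 counts and Hip1r at 80.5 to 128 are limited by depth.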

Other observations

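Between Cnn1 and its nearest tested neighbour Acp5, r of log2(TPM + 1) was taken within each group. Within the 6 α-asarone libraries it was -0.069 (exact permutation p = 0.878), with rho of -0.143. Without the 2 farthest of these 6 libraries r was 0.846. So few libraries are left then that nothing is read from the change. Within the 6 control libraries r was -0.961 (exact permutation p = 0.00417) and rho -0.943 (exact permutation p = 0.0167), and r was -0.879 without the 2 farthest libraries. Over the 16 relations of this kind computed for Cnn1, the adjusted p in controls was 0.0667 for r and 0.267 for rho, so neither passed, and the difference between the groups was not tested. Cnn1 and S100a4 had r of 0.350 within the α-asarone libraries (exact permutation p = 0.494) and -0.938 within the controls (exact permutation p = 0.0208, adjusted p = 0.167), with rho of 0.371 in α-asarone libraries and -0.829 in controls. Without the 2 farthest libraries of each group r was -0.687 with α-asarone and -0.777 in controls. The sign with α-asarone changed when those 2 libraries were left out, and the sign in controls stayed negative. So few libraries are left in each group that no relation is read from these values. Over all 6 libraries r with α-asarone did not pass adjustment either (adjusted exact permutation p = 0.943). Both genes of each pair were lower with α-asarone in the contrast of the groups.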
